A study of Mus musculus with 8 samples.

Results

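The genes examined here encode the enzymes of mevalonate and cholesterol synthesis, the proteins that control the sterol-responsive transcription factors SREBP, and the enzymes of fatty acid synthesis, elongation and desaturation. They form a list of named pathway genes, drawn up with earlier results of these data known and with no rule on measured values, and 32 of the 33 listed genes had a probe set assigned to that gene alone, among 18193 such genes on the array. Acat2, the thiolase that opens the pathway, had none and was not analysed here. RNA of the retinal pigment epithelium and choroid (RPE/choroid) came from male C57BL/6 mice with no genetic change or treatment, with 4 samples of young mice (4 months of age) and 4 of old mice (26 months of age), and each sample was hybridised to 1 Affymetrix Mouse 430 2.0 array. Each sample pooled 4 RPE/choroids of 2 animals, so the spread between arrays is that between pools.

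Cholesterol is built from acetyl-CoA through mevalonate, isoprenoid pyrophosphates, squalene and lanosterol. When sterols in the endoplasmic reticulum are low, the escort protein Scap carries the SREBP precursors to the Golgi for cleavage, and their released fragments switch on the genes of this pathway, while the Insig proteins hold Scap back when sterols are plentiful. Srebf2 mainly drives the sterol genes, Srebf1 mainly the fatty acid genes. The RPE takes in lipid-rich outer segment discs each day and exports cholesterol toward the choroid, and photoreceptor membranes are unusually rich in long polyunsaturated fatty acids.

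Promoter sequences are shown for Hmgcs1, the member that held a match to the classical sterol regulatory element, and for those genes past the test below that had a promoter entry, so that the known binding letters can be seen beside the measurements. The promoter table of RefSeq (build GRCm38.p6) held 26 of the 33 genes, Acat2 among them. Fdps, Fdft1, Sqle, Stard4, Scd1, Scd2 and Fads1 had no entry. Each sequence is the 150 bases directly before the annotated start, read 5′ to 3′ on the gene's strand. Capitals mark every match, on either strand, to the sterol regulatory element core TCACNCCAC, to the CCAAT box (CCAAT, or ATTGG on the other strand) and to the GC box (GGGCGG or CCGCCC).
Hmgcs1, chr13:119690201-119690350, plus strand: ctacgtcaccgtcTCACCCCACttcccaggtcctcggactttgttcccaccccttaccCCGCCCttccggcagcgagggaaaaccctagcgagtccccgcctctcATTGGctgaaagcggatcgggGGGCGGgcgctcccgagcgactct
Fasn, chr11:120824548-120824697, minus strand: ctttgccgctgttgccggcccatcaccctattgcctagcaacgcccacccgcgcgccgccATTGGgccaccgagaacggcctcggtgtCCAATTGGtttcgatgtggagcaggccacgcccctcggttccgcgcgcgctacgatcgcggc
Ebp, chrX:8193513-8193662, minus strand: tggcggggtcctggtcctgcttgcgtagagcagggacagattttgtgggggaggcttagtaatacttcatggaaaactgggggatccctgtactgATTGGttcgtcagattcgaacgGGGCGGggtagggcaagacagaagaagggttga
Elovl5, chr9:77917215-77917364, plus strand: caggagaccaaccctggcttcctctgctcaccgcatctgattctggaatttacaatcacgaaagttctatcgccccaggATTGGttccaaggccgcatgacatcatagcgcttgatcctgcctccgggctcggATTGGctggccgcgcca
Scap, chr9:110333206-110333355, plus strand: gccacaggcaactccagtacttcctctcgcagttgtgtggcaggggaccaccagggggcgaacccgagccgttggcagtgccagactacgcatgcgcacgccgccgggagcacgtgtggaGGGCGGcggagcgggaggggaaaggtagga

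Within 250 bases before the start, a CCAAT box lay in 20 of the 26 genes with an entry (76.9%), beside 39.4% of the 14453 genes that had both a probe set and a promoter entry and 33.8% of all 32851 promoter windows. The GC box was found in 21 of 26 (80.8%), against 53.4% of the same array genes and 32.7% of all windows. The 9 letters of the sterol regulatory element core were found in Hmgcs1 alone, 3.85% of the 26 genes, beside 1.27% of array genes and 1.05% of windows. In Fasn, 2 of the 3 CCAAT matches overlap as CCAATTGG, and Scap is shown by the one of its 2 windows with the most matches. These are matches of letters, and they say nothing about binding in this tissue.

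The share of sterol and fatty acid synthesis genes called between old and young RPE/choroid was not far from that of all genes. The called genes differed by little. Of the 32 genes, 3 were higher in old animals (the fatty acid synthase gene Fasn, the desaturase gene Scd1 and the sterol isomerase gene Ebp) and 2 were lower (Scap and the elongase gene Elovl5) at an adjusted p under 0.05 from limma. The 5 called genes are 15.6% of the members, beside 21.3% of all genes. The higher genes are 9.38% of the members, beside 11.8% of all genes, and the lower genes 6.25%, beside 9.56%. No member passed a fold over 2 with an adjusted p under 0.01, thresholds that 1.13% of all genes passed as higher and 0.0989% as lower.

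The largest difference of any member was 1.29-fold, for Cyp51, which did not pass. The median log2 difference of the members was 0.06 and that of all genes -0.02. Without regard to sign, the median log2 difference was 0.12 for the members and 0.13 for all genes. The values of the ages were fully apart for 8 of the 32 genes (25.0%), beside 29.5% of all genes. In 4 of these the old arrays lay above the young ones, as in 15.8% of all genes, and in 4 below, as in 13.7%. For all of the 27 genes that did not pass, the 95% interval lay inside a 2-fold change either way, and for 26 of them inside a 1.5-fold change. Of these 27 intervals, 7 did not include 0, before adjustment over all probe sets. Among all 32 members, 12 had an unadjusted p under 0.05 (limma), beside 6804 of all 18193 genes.

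**Figure D1:**
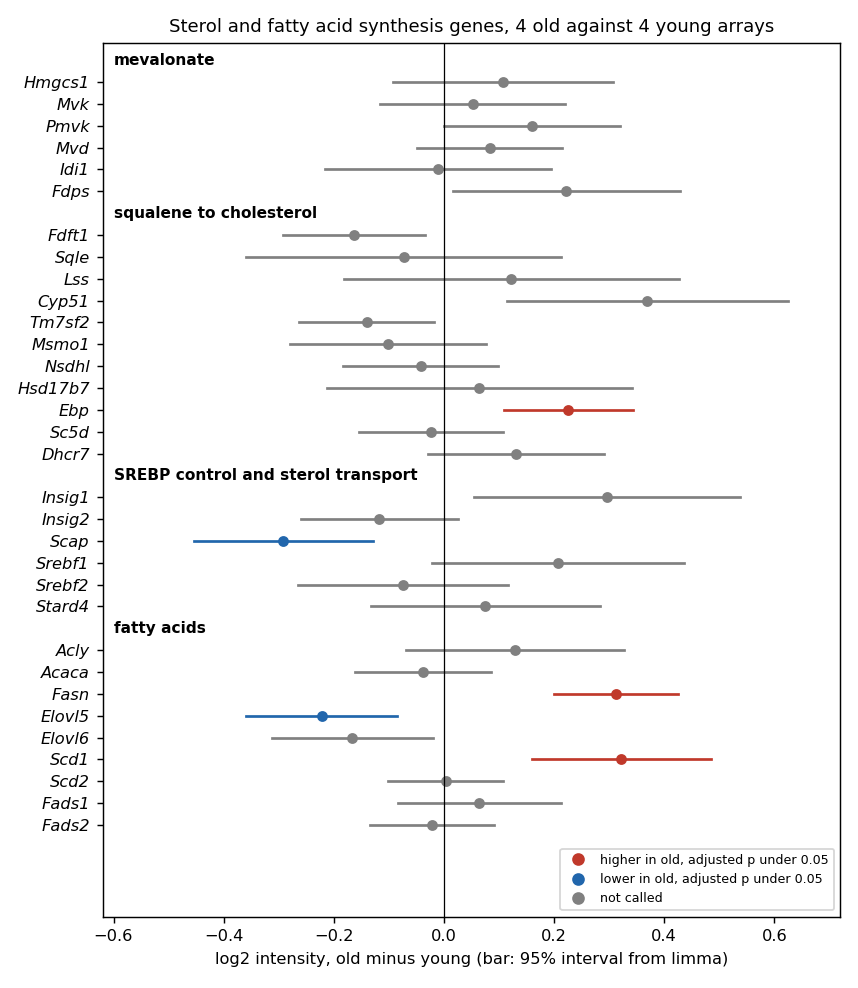
Difference in log2 intensity between old and young arrays for each of the 32 genes, grouped by pathway step, with the 95% interval from limma as a bar. The points lie between -0.29 for Scap and 0.37 for Cyp51, and 5 of them are coloured as past an adjusted p of 0.05.

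Markers of several cell types in the dissected tissue differed with age on the same arrays, where 11.8% of all genes were higher and 9.56% lower. Of 10 macrophage markers 8 were higher and 0 lower, and their summed intensity lay between 12634 and 14231 in young and between 22775 and 25461 in old arrays. Lower were 7 of 8 endothelial markers, 6 of 6 pigment cell markers and 5 of 9 markers of glia (Mueller cells and astrocytes), of which 1 was higher. Of 10 RPE markers 4 were lower and 0 higher. Otx2, Rlbp1, Lrat and Rdh5 had log2 differences of -0.33, -0.27, -0.25 and -0.20. Rlbp1 is also 1 of the 5 lower glia markers. The summed RPE marker intensity lay between 85218 and 87824 in young and between 76990 and 81374 in old arrays. Rpe65, the retinoid isomerase that defines the RPE, was not called, at 11578 ± 543 (SD, n = 4) in young and 11066 ± 254 (SD, n = 4) in old animals. Summed over 9 rod and cone markers, the young arrays ranged between 9116 and 18870 and the old arrays between 7008 and 18231, a wide spread within each age. None of the 9 passed, and 1 had an unadjusted p under 0.05 (limma), beside 6804 of all 18193 genes. In such bulk samples fewer cells of a type and less RNA per cell cannot be told apart, and the part of these shifts in the results below was not tested.

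The enzymes that take acetyl groups to farnesyl pyrophosphate showed 0 calls among 6 measured genes by limma's adjusted p, where 21.3% of all genes were called. Of the 6, 2 had an unadjusted p under 0.05 (limma), beside 6804 of all 18193 genes. Hmgcs1, which makes HMG-CoA, had intensities of 1819, 1957, 2256 and 2349 in young and 2177, 2099, 2362 and 2354 in old arrays. The old values thus lay inside the upper part of the young range, apart from 2 that were slightly above it, with a log2 difference of 0.11 (standard error, SE, 0.09, adjusted p = 0.436). Fdps, the farnesyl pyrophosphate synthase, had 521, 620, 617 and 667 in young and 665, 648, 792 and 720 in old arrays. It had the largest difference of this step, 0.22 in log2 intensity (SE 0.09, adjusted p = 0.124), with the ages overlapping. The direction turned with the probe set, since the second one of Fdps, with mean intensities of 13.9 and 10.4, differed by -0.41 (adjusted p = 0.0626) and the mean of both by -0.09 (0.461).

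The kinases of the step, Mvk and Pmvk, differed by 0.05 and 0.16 (adjusted p = 0.664 and 0.15). Mvd, the decarboxylase that yields isopentenyl pyrophosphate, differed by 0.08 (adjusted p = 0.355) on the probe set used here. Its second probe set went from a mean intensity of 165 to 213 and rose by 0.37 (adjusted p = 0.00486), so its probe sets gave different calls. The mean of both Mvd probe sets rose by 0.23 (adjusted p = 0.0134). That second probe set is of a kind that can bind related transcripts, as are those used here for Hmgcs1, Fdft1, Lss, Acly and Elovl5. Idi1, the isomerase of the same product, was at 712 ± 89.0 (SD, n = 4) in young and 703 ± 29.9 (SD, n = 4) in old arrays.

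From squalene to cholesterol, 1 of 11 genes rose and 0 fell (9.09% called, beside 21.3% of all genes). Ebp, the isomerase that moves the double bond of the sterol ring, had intensities of 580, 613, 566 and 565 in young and 684, 664, 701 and 668 in old arrays. The lowest old value exceeded the highest young value, and Ebp rose by 0.23 in log2 intensity (SE 0.05, adjusted p = 0.0176). The call was lost when young replicate 3 (adjusted p = 0.0563), young replicate 4 (0.0504) or old replicate 3 (0.0538) was left out, with log2 differences of 0.21 each time. It was also lost with the replicate number as a block (0.0566), without old replicates 2 and 4 together (0.25, 0.0708) and without young replicate 1 and old replicate 3 together (0.21, 0.107).

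Cyp51, the lanosterol demethylase, had 442, 447, 581 and 611 in young and 643, 695, 702 and 623 in old arrays. The old arrays were all above the young ones, but the young arrays fell into a lower and a higher pair, and the difference of 0.37 (SE 0.11, adjusted p = 0.0517) missed the threshold. It passed without young replicate 4 (adjusted p = 0.0286), when low probe sets were left out before adjustment (0.0273), after median centring (0.0308), with 32 added to every intensity (0.0283) and with a variance trend (0.0283). It did not pass after quantile normalization (0.32, adjusted p = 0.0808), with a replicate block (0.0704) or without any other single array (0.30 to 0.43, 0.0542 to 0.122). Its second probe set differed by 0.29 (adjusted p = 0.0987), the remaining one by -0.14 (0.299) and the mean of all its probe sets by 0.18 (0.206).

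Fdft1, the squalene synthase, and Tm7sf2, a sterol reductase, were below the young range in all old arrays, with log2 differences of -0.16 and -0.14 (adjusted p = 0.0775 and 0.104). Fdft1 stood at 1224, 1390, 1290 and 1284 in young and 1178, 1131, 1200 and 1119 in old arrays. Its second probe set differed by -0.18 (adjusted p = 0.0841). Fdft1 passed as lower after quantile normalization (-0.23, adjusted p = 0.021), without low probe sets (0.0353), with the offset of 32 (0.0472) and with a variance trend (0.038), but not after median centring (-0.14, 0.189) or with a replicate block (0.143). Tm7sf2 passed only without low probe sets (0.0492) among the settings run.

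Sqle, the squalene epoxidase and a rate-limiting enzyme of the branch, had 974, 1078, 1168 and 1441 in young and 1059, 938, 1228 and 1183 in old arrays. The ages overlapped widely, and the log2 difference was -0.07 (SE 0.13, 95% interval -0.36 to 0.21). Lss, the cyclase that forms lanosterol, differed by 0.12 (SE 0.14) and Hsd17b7, a sterol ketoreductase, by 0.06 (SE 0.12). Msmo1 and Nsdhl, which act together in the removal of the methyl groups of the ring, differed by -0.10 and -0.04, Sc5d, a desaturase of the ring, by -0.02 and Dhcr7, the last reductase, by 0.13, with adjusted p from 0.23 to 0.811. A second probe set of Sc5d fell by 0.40 (adjusted p = 0.0229, mean intensity 362 in young and 275 in old), a probe set of Lss fell by 0.20 (adjusted p = 0.0487, 57.9 and 50.5) and one of Hsd17b7 by 0.25 (adjusted p = 0.0448, 67.5 and 57.0).

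Among the genes of SREBP control and sterol transport, 1 of 6 fell and 0 rose (16.7% called, beside 21.3% of all genes). Scap, the escort that senses sterols, had intensities of 2962, 2858, 2505 and 2533 in young and 2365, 2179, 2103 and 2206 in old arrays. All old arrays were below all young ones, and Scap fell by 0.29 in log2 intensity (SE 0.07, adjusted p = 0.0234). The call was lost without young replicate 1 (adjusted p = 0.0594) or 2 (0.0512) and without old replicate 2 (0.055), 3 (0.0673) or 4 (0.0514), with log2 differences of -0.29 to -0.25. It was lost as well without old replicates 2 and 4 together (-0.28, adjusted p = 0.133) and without young replicate 1 and old replicate 3 together (-0.22, 0.137). Its second probe set had means of 52.4 and 49.4 and differed by -0.09 (adjusted p = 0.555).

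Insig1, itself a target of SREBP and the retainer of Scap, had 503, 656, 619 and 652 in young and 642, 810, 814 and 715 in old arrays. Old replicate 1 lay within the young range and the other old arrays above it, for a log2 difference of 0.30 (SE 0.11, adjusted p = 0.0869). Without old replicate 1 the difference was 0.37 (adjusted p = 0.0452). Insig2, the second retainer, spanned 1802 to 1960 at the young age and 1611 to 1874 at the old age, a difference of -0.12 (adjusted p = 0.229), and its other probe sets differed by -0.19 and -0.20 (adjusted p = 0.183 and 0.0786).

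Srebf1 had 2652, 2010, 2129 and 2160 in young and 2226, 2707, 2580 and 2801 in old arrays. Young replicate 1 sat among the old values and apart from the other young arrays, and the difference was 0.21 (SE 0.10, adjusted p = 0.188). Srebf2 was at 474 ± 47.8 (SD, n = 4) in young and 449 ± 30.1 (SD, n = 4) in old arrays, a log2 difference of -0.07 with a 95% interval of -0.26 to 0.12. Stard4, a cytosolic sterol carrier, was at 352 ± 29.4 (SD, n = 4) and 372 ± 40.5 (SD, n = 4).

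Among the 9 genes of fatty acid synthesis, 2 were higher and 1 lower, so that 33.3% were called, beside 21.3% of all genes, a difference that was not tested. Fasn, which builds palmitate, had intensities of 841, 868, 875 and 907 in young and 1107, 1102, 1062 and 1064 in old arrays. The lowest old array was above the highest young array by more than either age's SD, and Fasn rose by 0.31 in log2 intensity, 1.24-fold (SE 0.05, adjusted p = 0.00344). Fasn has 1 probe set. It passed an adjusted p of 0.05 in all 17 other settings run at that threshold, with log2 differences of 0.25 to 0.34 and adjusted p of 0.000471 to 0.0359. It did not reach the fold threshold of 2. Scd1, the stearoyl-CoA desaturase that makes oleate, had 851, 920, 926 and 1057 in young and 1141, 1161, 1239 and 1139 in old arrays.

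The ages did not overlap for Scd1 either, and it rose by 0.32, 1.25-fold (SE 0.07, adjusted p = 0.0162). Its second probe set rose by 0.40 (adjusted p = 0.00983). At an adjusted p under 0.05, Scd1 passed in 16 of 18 other settings. The exceptions were the removal of old replicates 2 and 4 together (0.35, adjusted p = 0.0769) and of young replicate 1 with old replicate 3 (0.25, adjusted p = 0.101). Scd2, the desaturase isoform of brain and other tissues, was at 6222 ± 93.0 (SD, n = 4) in young and 6235 ± 93.4 (SD, n = 4) in old arrays, with a 95% interval of the log2 difference of -0.10 to 0.11. A second probe set of Scd2 differed by 0.20 (adjusted p = 0.0508).

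Fat cells also express Fasn and Scd1 strongly, and orbital fat borders the eye. Of 8 adipocyte markers 1 was higher (12.5%, beside 11.8% of all genes) and 0 lower. That gene was Fabp4, a fatty acid carrier also made by macrophages and endothelium, which went from 411 ± 88.7 (SD, n = 4) to 1510 ± 322 (SD, n = 4) and made up most of the rise of the summed marker level, which was 1111 to 1287 at the young and 1995 to 2773 at the old age. Adipoq, the hormone that defines fat cells, was at 36.6 ± 2.79 (SD, n = 4) in young and 36.5 ± 3.25 (SD, n = 4) in old arrays, and Lep, another hormone of fat cells, at 30.1 ± 2.06 and 28.5 ± 3.55 (SD, n = 4 each). Plin4 was at 316 ± 36.6 and 345 ± 22.1 (SD, n = 4 each), and Lipe had means of 141 and 140. Cidec, Retn and Pck1 had means of 86.5, 96.6 and 89.4 in young and 85.3, 100 and 74.8 in old arrays. The listed markers Plin1 and Cfd were not measured. The median of all probe sets was 129 to 135 per array. Whether fat or macrophages had a part in the Fasn and Scd1 values was not tested.

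Elovl5, which elongates polyunsaturated chains, had 2653, 2432, 2415 and 2489 in young and 2321, 2072, 2043 and 2135 in old arrays. All old arrays were below all young arrays, and Elovl5 fell by 0.22 in log2 intensity (SE 0.06, adjusted p = 0.0345). The call was lost after median centring (-0.19, adjusted p = 0.0586) and when any array but young replicate 2 or old replicate 1 was left out (-0.24 to -0.19, adjusted p = 0.0633 to 0.0937). Its other probe set differed by -0.07 (adjusted p = 0.397) and the mean of both by -0.15 (0.0664). Leaving out old replicates 2 and 4 together gave -0.20 (adjusted p = 0.188), and young replicate 1 with old replicate 3 gave -0.17 (0.186). The probe set used here is of a kind that can bind related transcripts.

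Elovl6, which lengthens palmitate, had 952, 1016, 963 and 1045 in young and 887, 964, 815 and 879 in old arrays. Only old replicate 2 reached into the young range, the difference was -0.17 (SE 0.06, adjusted p = 0.106), and the second probe set fell by 0.45, from a mean of 718 to 528 (adjusted p = 0.00908). The mean over all Elovl6 probe sets differed by -0.23 (adjusted p = 0.0148), and after quantile normalization the probe set used here passed as well (-0.22, adjusted p = 0.0296).

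Acly, the citrate lyase that supplies acetyl-CoA, was at 1217 ± 140.3 (SD, n = 4) in young and 1325 ± 73.0 (SD, n = 4) in old arrays (adjusted p = 0.342). Acaca, the carboxylase of the committed step, was at 834 ± 11.4 (SD, n = 4) and 814 ± 42.8 (SD, n = 4) (adjusted p = 0.669). The desaturases Fads1 and Fads2, which act on polyunsaturated fatty acids, differed by 0.06 and -0.02 (adjusted p = 0.534 and 0.795). The ages overlapped for all 4 of these genes.

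**Figure D2:**
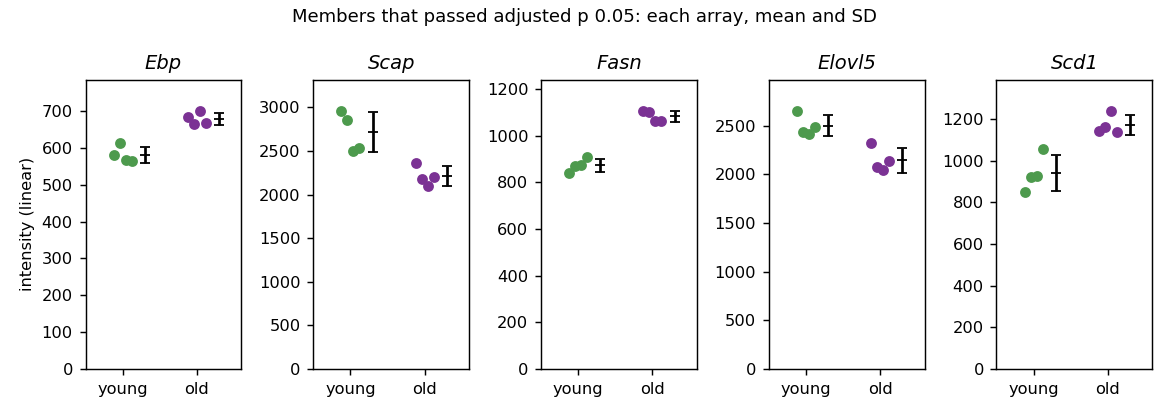
Linear intensity (vertical axis, from 0) of the 5 genes past an adjusted p of 0.05 in the 4 young and 4 old arrays, each dot an array, with the mean and SD beside the dots. In all 5 genes the ages do not overlap, and the folds between the ages run from 1.17 for Ebp and Elovl5 to 1.25 for Scd1.

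For 5 pairs of related genes, the log2 ratio of the 2 genes within each array was compared between the ages by an exact permutation test (two-sided), where 4 arrays against 4 cannot give a p below 0.0286. The Scd1 to Scd2 ratio was higher in all 4 old arrays than in any young array, by 0.32 on the log2 scale (p = 0.0286 by the exact test, the smallest it can give, and 0.143 adjusted over the 5 pairs). The Insig1 to Insig2 ratio was higher by 0.41 in old animals (p = 0.114 by the exact test, 0.19 adjusted) and the Srebf1 to Srebf2 ratio by 0.28 (p = 0.114, 0.19 adjusted, exact test). For Fads1 to Fads2 the shift was 0.09 (p = 0.171 by the exact test, 0.214 adjusted). For Elovl5 to Elovl6 it was -0.05 (p = 0.543 by the exact test and after adjustment). The smallest p of this design does not pass after adjustment over 5 pairs, so the test could not call a single pair on its own.

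The mean centred log2 level of the 6 mevalonate genes lay between -0.14 and 0.03 in young and between -0.03 and 0.15 in old arrays, and that of the 11 later sterol genes between -0.10 and 0.09 and between -0.04 and 0.07. For the SREBP group the limits were -0.03 and 0.03, and -0.03 and 0.06. The 9 fatty acid genes lay between -0.07 and 0.04 in young arrays and at 0.02 in every old array. Young and old arrays overlapped in all 4 groups.

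**Figure D3:**
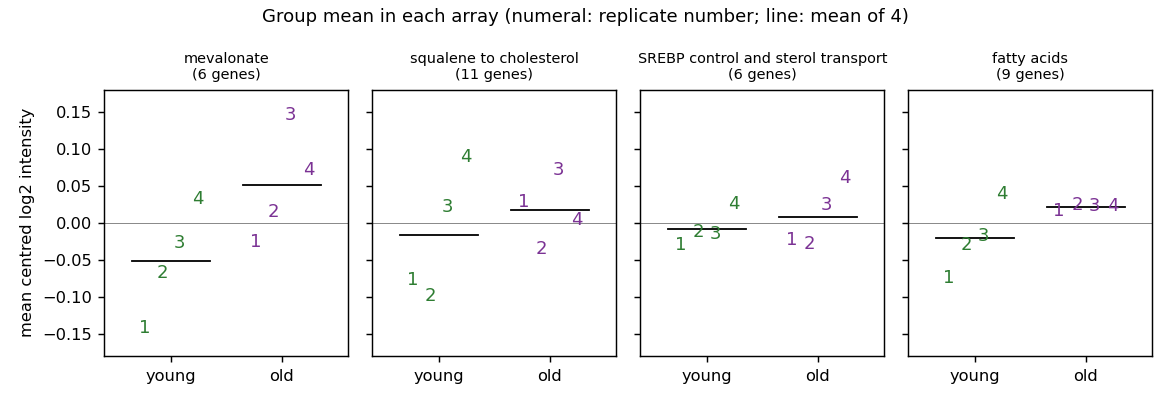
Mean centred log2 intensity (vertical axis) of each group of genes in each array, with the replicate number as the plotting symbol and the mean of 4 arrays as a line. The ages overlap in all 4 panels, and the old arrays of the fatty acid panel lie together at 0.02.

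Many of the sterol enzymes were highest or lowest in the same arrays of one age. Old replicate 3 was the highest old array for 13 of the 17 sterol synthesis enzymes (76.5%), where it was the highest for 21.9% of all genes. In that array 16 of 17 enzymes (94.1%) were above the mean of the old arrays, all but Lss, with a median of 0.08 on the log2 scale. Of all genes, 47.9% were above it there, with a median of -0.005. Young replicate 4 was the highest young array for 11 of the 17 (64.7%), against 29.6% of all genes. At the other end, young replicate 1 was the lowest young array for 8 of the 17 (47.1%) and old replicate 2 the lowest old array for 9 (52.9%), against 26.5% and 28.0% of all genes.

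Sqle, Idi1, Fdps and Hmgcs1 illustrate this, each with its lowest young value in young replicate 1 and its highest in young replicate 4, and its highest old value in old replicate 3. The median SD within an age was 0.105 on the log2 scale for the 17 enzymes and 0.0996 for all genes, a difference that was not tested. On the same arrays, the summed level of 7 Schwann cell and myelin markers was 6624 in young replicate 4 against 5666 to 5871 in the other young arrays, and 6483 in old replicate 3 against 5790 to 6243 in the other old arrays. The rod and cone sum was lowest in each age in these same arrays, at 9116 against 16475 to 18870 in young and 7008 against 7441 to 18231 in old. Summed skeletal muscle markers, in order of replicate number, stood at 1153, 1099, 1890 and 2154 in young and 1975, 1036, 1242 and 957 in old arrays. Of these 8 markers 0 were called between the ages. Old replicate 2 stood apart in neutrophil markers, with a sum of 17404 over 6 genes against 1139 to 2357 in the other old arrays. Of the neutrophil markers 2 were higher in old animals, as were 3 of 6 T cell markers and 1 of 5 B and plasma cell markers, with 0 lower in each of these lists. The part of any of these in the sterol values was not tested.

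**Figure D4:**
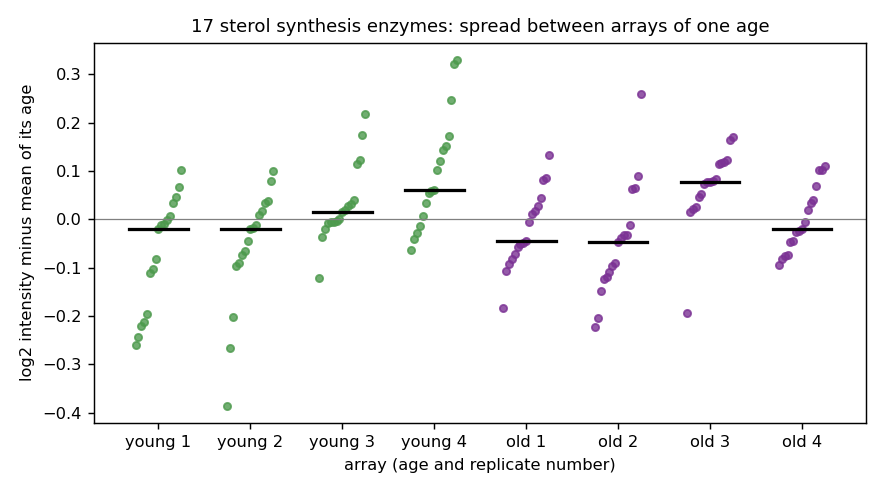
Log2 intensity of the 17 sterol synthesis enzymes in each array minus the mean of the 4 arrays of its own age, each dot a gene and the bar the median. In old replicate 3, 16 of 17 dots lie above 0, beside 47.9% of all genes (not drawn). The median of young replicate 4 is 0.06, beside 0.02 for all genes.

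Further genes of the same pathways, from a list of 54 of which 46 were measured and 8 were not analysed here, gave 5 higher and 8 lower genes (28.3% called, beside 21.3% of all genes), none of them past a fold over 2. Of 13 genes of the isoprenoid and oxysterol branches, Nus1, a subunit of the enzyme that makes the dolichol backbone, rose by 0.27 (SE 0.07, adjusted p = 0.0348) and Cyp7b1, which hydroxylates oxysterols, fell by 0.22 (SE 0.06, adjusted p = 0.0287). Of 9 genes of SREBP processing and sterol sensing, Aup1, a lipid droplet protein of the degradation machinery of the endoplasmic reticulum, rose by 0.21 (adjusted p = 0.0218) and Erlin2, a membrane scaffold that takes part in the same degradation, fell by 0.20 (adjusted p = 0.0243).

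The remaining 24 genes belong to fatty acid metabolism. Of these 3 rose (12.5%, beside 11.8% of all genes) and 6 fell (25%, beside 9.56%), differences that were not tested. Slc25a1, the carrier that exports citrate from mitochondria for Acly, had 761, 746, 759 and 803 in young and 902, 868, 1047 and 960 in old arrays, and rose by 0.30 (SE 0.07, adjusted p = 0.0172). Acsl4, which activates arachidonate, rose by 0.27 (adjusted p = 0.0339), and Hacd4, a dehydratase of chain elongation, by 0.36 (adjusted p = 0.00759). Its relative Hacd1 fell by 0.34 (adjusted p = 0.00633) and Fads3, of the family of Fads1 and Fads2, by 0.27 (adjusted p = 0.0388). Hacd3 fell by 0.21 (adjusted p = 0.0301) and Oxsm by 0.22 (adjusted p = 0.0391).

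Elovl7, an elongase of saturated chains, went from 2376 ± 106.0 (SD, n = 4) to 1743 ± 265 (SD, n = 4) and fell by 0.46 (adjusted p = 0.0158). The probe sets used for Elovl7, Hacd1, Nus1 and Cyp7b1 are of a kind that can bind related transcripts. Each of these genes has other probe sets, whose values are not given here. Elovl4, which makes the very long chains of photoreceptor membranes, had 617, 751, 640 and 551 in young and 363, 432, 337 and 571 in old arrays. It fell by 0.61 (SE 0.16, adjusted p = 0.0302), the largest change of the 46 genes, although old replicate 4 lay within the young range. The rod and cone marker sum of that array was 18231, and the sums of the other old arrays lay between 7008 and 10538. The part of photoreceptor RNA in the Elovl4 values was not tested.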

How the data were processed

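In the deposited table, 45101 probe sets have an intensity on a linear scale in 8 arrays, normalized by the authors in a step that the sources used here do not name. The study's methods give RMA in affy, invariant set normalization in Dchip and BRB-ArrayTools as routes. RMA would give log2 values, and these are linear. After raising values below 1 (8 to 14 an array) to 1, the deposited intensity was put on the log2 scale. Old was compared with young by lmFit and eBayes (limma 3.58.1, R 4.3.3) on the 45037 probe sets that are no controls, and p was adjusted over these by Benjamini-Hochberg. Each gene is given by the probe set of highest mean log2 among those naming it alone (34945 probe sets, platform annotation). A gene rose or fell at an adjusted p under 0.05. Numbers of arrays limit the precision, and no detection calls were used. The fit was tested on simulated data.

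All members are named here. Of the other pathway genes, those that passed the threshold are named. The members, lists and markers were chosen with earlier results of these data known. Alternatives were quantile normalization, median centring, a filter on low values, an offset of 32, a variance trend, a replicate block, leaving out each array, and other probe sets per gene. No source pairs young with old samples. Arrays of the same number, after removal of the age means, had correlations of 0.0971, 0.019, 0.0218 and 0.0427, so no block was used.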

Additional observations from a re-analysis of the deposited data

Results flagged for a closer look

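In 3 of 64 groups of 4 arrays (32 genes, each age), 1 array lay far from the other 3 relative to the range of the group, and chance flags about 1 group in 20. Mvk was at 216 in young replicate 3 and at 240 to 244 in the other young arrays. For Msmo1, old replicate 2 gave 1338, against 1583 to 1633 elsewhere at that age. For Scd2, old replicate 3 gave 6374, against 6171 to 6199 elsewhere at that age. None of these 3 genes passed the test between the ages.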

How the results depend on the processing

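The count of 3 higher members ranged from 2 to 5 when 1 array was left out, 5 without old replicate 1 and 2 without young replicate 3 or old replicate 3. The count of 2 lower members ranged from 0 to 2, being 0 without young replicate 1 or old replicates 2, 3 or 4, and 1 without young replicates 2, 3 or 4. Lower members numbered 4 after quantile normalization, 1 after median centring and 4 with only probe sets at or above the median level. With the fold threshold of 2 and an adjusted p of 0.01, 0 were higher and 0 lower. When old replicates 2 and 4, or young replicate 1 and old replicate 3, were left out together (chosen after seeing the data), 1 was higher, Fasn in both cases, and 0 were lower. The replicate block gave 3 higher and 2 lower, with Insig1 called in place of Ebp. The Elovl5 to Elovl6 shift ranged from -0.0930 to 0.00197 when 1 array was left out and was 0.0847 with the mean of all probe sets. The shifts of the other pairs kept their sign in the settings run. With the second probe set, which 23 members have, Mvd and Scd1 were called higher and Sc5d and Elovl6 lower. Fdps, Idi1, Fads2 and Srebf2 had the opposite sign there, none of them called. With the mean of all probe sets, Mvd, Ebp, Fasn and Scd1 were higher and Scap and Elovl6 lower. Causes were not tested. Among all genes, the higher share of calls was 55.2%, 48.3% after quantile normalization and 64.8% after median centring.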
